A study of Bos taurus with 8 samples.

Results

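The cellular response to low oxygen was examined through 10 genes, the hypoxia-inducible factor (HIF) subunits HIF1A and EPAS1, the oxygen-sensing enzymes EGLN1 and EGLN3, and 6 genes that HIF is known to drive, ANKRD37, VEGFA, BNIP3, BNIP3L, NDRG1 and KDM3A. Genes were chosen by symbol, and all 10 were found among the 14970 genes of the table, each in 1 copy. RNA was sequenced from 8 bovine trophectoderm outgrowths, sheets of cells that grow out from the outer layer of the embryo. Each came from a single in vitro produced embryo that had hatched and was put on collagen IV at day 10 in a trophectoderm medium, and cells were taken on day 35 (libraries A to D, n = 4) or day 41 (libraries E to H, n = 4). No other treatment separates the groups, and the oxygen level of the culture is not stated in the labels. The headers give the day of each library and not which embryo it came from, so libraries are lettered in table order and a possible link between outgrowths of the 2 days cannot be used.

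In animal cells HIF is a pair of proteins, an oxygen-regulated alpha subunit (HIF1A, or EPAS1, also called HIF-2 alpha) and a constant partner, ARNT. When oxygen is present the prolyl hydroxylases EGLN1, EGLN2 and EGLN3 mark the alpha subunit for binding by VHL and destruction, and when oxygen is short it escapes, enters the nucleus and turns on its targets. Several targets feed back on the system, EGLN1 and EGLN3 among them. Because HIF alpha is controlled mostly as a protein, its RNA level says little about its activity, and only RNA was measured here. In the mouse, loss of the HIF subunits disturbs the growth of the trophoblast and the placenta.

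All values below are RPKM, reads scaled by annotated exon length and by an adjusted library size, as computed by the authors, and means are given ± SD with n = 4 per day. Between 106402848 and 158034430 reads per library could be recovered from the table, and a single one of the 10 genes held from 271 to 88235 reads in a library, so counting error was small beside the spread between outgrowths. Library A stood apart from the other 7, with a quality weight of 0.133 against 0.702 to 3.15 in the weighted fit. The trophoblast markers KRT8, KRT18, KRT19, KRT7, CDH1, GATA2, GATA3, TFAP2A, TFAP2C, CDX2 and TEAD4, 11 of 11 in the table, summed to between 4879 and 7947 RPKM in every library, and 10 of these 11 had lower values on day 41. Stromal markers varied far more, and the sum over 11 of 11 ran from 90.4 to 407 RPKM (day 35) against 33.3 to 166 RPKM (day 41), highest in library B. Of the 6 stromal markers tested 5 had lower values on day 41 with a median log2 fold change of -0.94, 0 passed, and the authors' deposited table gives ACTA2 an FDR of 0.000987 and TAGLN one of 7.64e-05, both lower. Hypoblast markers, with 9 of 10 present, summed to 21.9 to 451 RPKM (day 35) against 15.5 to 149 RPKM (day 41), again highest in B, and HNF4A, AFP, TTR and APOB were at 0 in at least 1 library. Of 10 endothelial markers 3 were present (PECAM1, VWF and ESAM), and these summed to 1.59 to 3.76 RPKM (day 35) against 1.44 to 3.75 RPKM (day 41). Of 10 blood markers 4 were present, with AIF1 making up most of their sum of 192 to 300 RPKM (day 35) against 233 to 293 RPKM (day 41).

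Averaged over the 8 libraries, the order of the 10 genes was NDRG1 (138 RPKM), EGLN3 (90.6), HIF1A (78.9), BNIP3L (61.7), VEGFA (60.0), EPAS1 (58.0), BNIP3 (53.8), EGLN1 (18.9), KDM3A (16.8) and ANKRD37 (4.41). RPKM is a level per length of exon, so these can be set against each other. The gaps from BNIP3 down to EGLN1 and from KDM3A down to ANKRD37 were the only ones between neighbours in this order whose ranges over libraries did not overlap. From EGLN3 to BNIP3 the neighbouring genes overlapped, and EGLN3 exceeded HIF1A in 4 of 8 libraries, those of day 41. Among the 12582 genes tested, NDRG1 lay at the 95.7th percentile of level and ANKRD37 at the 29.3rd. The annotated exon length of BNIP3 was 570 bases, the shortest of the 10, and the level of a gene depends on how complete that length is.

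**Figure D1:**
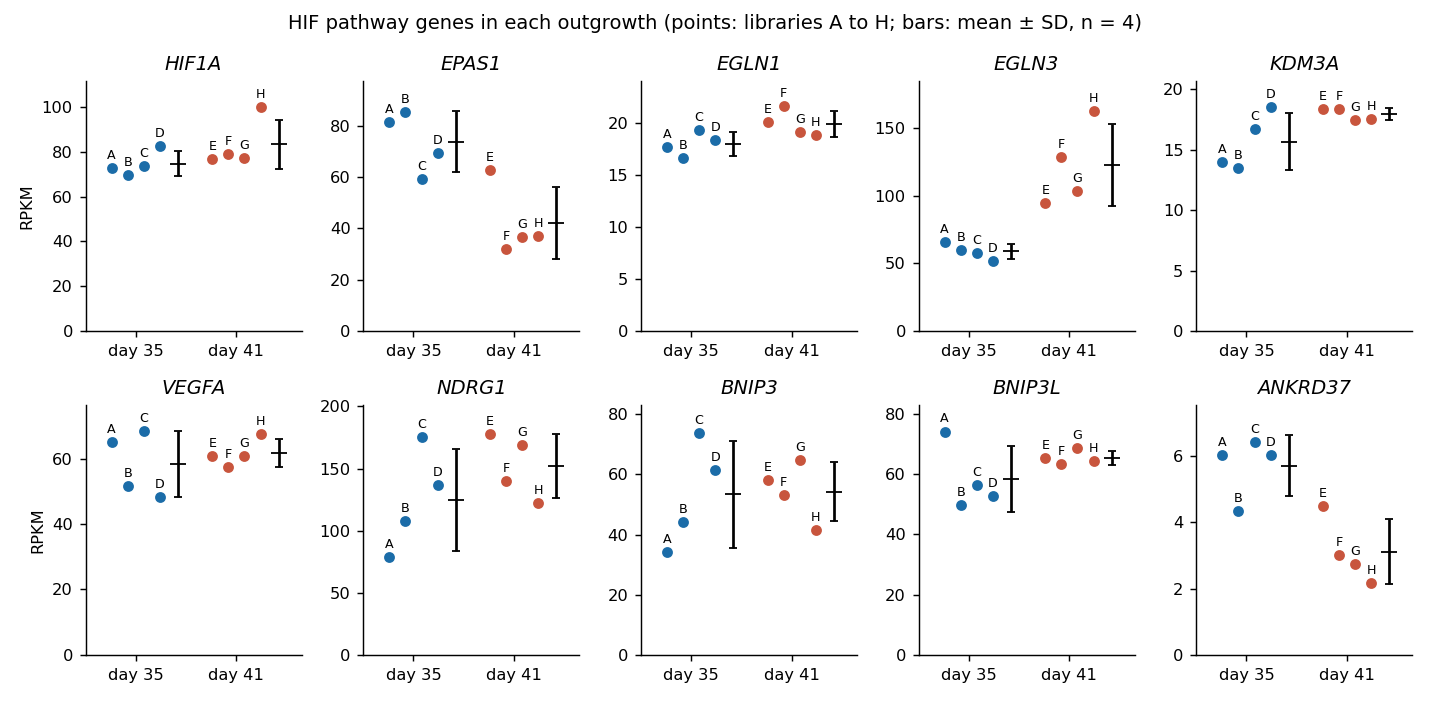
RPKM of the 10 genes in each library, with day 35 (A to D) in blue, day 41 (E to H) in red, and the mean ± SD of 4 libraries in black. EGLN3 is the gene whose days do not overlap, and library E lies nearest to day 35 among the day 41 libraries for EGLN3, EPAS1 and ANKRD37.

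The days were compared for all 12582 genes with at least 0.5 RPKM in at least 4 libraries, by limma-trend on log2(RPKM + 1), with p-values adjusted by Benjamini and Hochberg and a threshold of 0.05. All 10 genes passed this filter and 0 of 10 passed the test, where 0.0477% of all genes did (0.0318% higher and 0.0159% lower on day 41). Unadjusted p-values were under 0.05 for EGLN3, EPAS1 and ANKRD37, 3 of 10 where 11.7% of all genes had one. With limma-voom and quality weights, 1 of the 10 passed (EGLN3, higher), where 5.18% of all genes did and 2.96% did as higher. The authors' deposited table gives an FDR under 0.05 to 2 of the 10, against 1.76% of its genes, EGLN3 being higher (as 0.675% of genes are) and EPAS1 lower (as 1.08% are). Over the 10 genes 8 had a higher and 2 a lower value on day 41, with a median log2 fold change of 0.14, and over all genes tested 52.6% were higher with a median of 0.01.

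**Figure D2:**
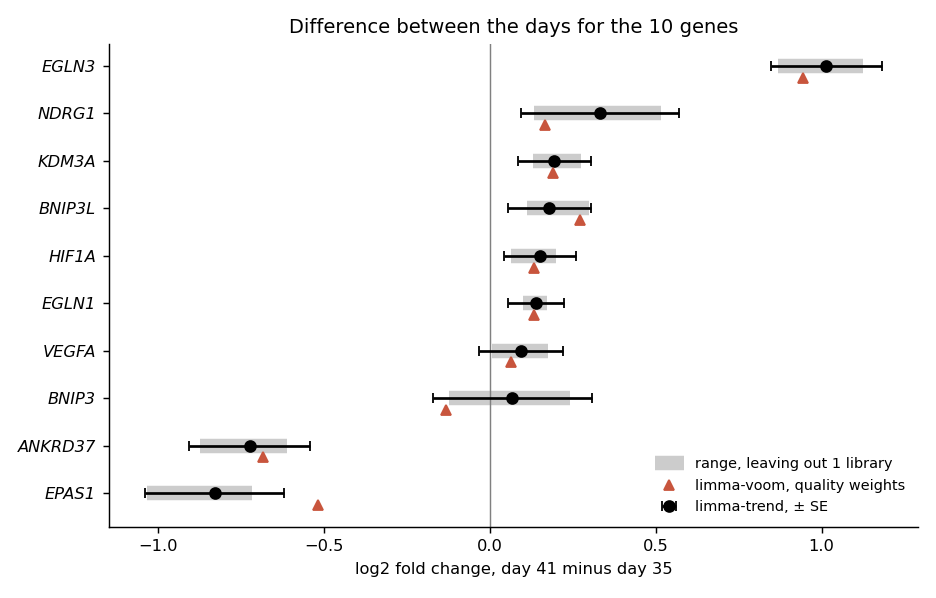
Log2 fold change of each gene (day 41 minus day 35) by limma-trend on log2(RPKM + 1) with its SE (black), the range when each of the 8 libraries is left out (grey) and the value from limma-voom with quality weights (red). EGLN3 stands near 1.01, EPAS1 and ANKRD37 stand at -0.83 and -0.72, and the other 7 lie between 0.07 and 0.33.

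Of the HIF alpha subunits, HIF1A was the steadier. HIF1A (ENSBTAG00000020935, ARS-UCD1.2 chromosome 10, 73836334 to 73881299, 15 exons) is the widely expressed alpha subunit. Its level on day 35 was 72.5, 69.6, 73.7 and 82.6 RPKM in libraries A to D, and on day 41 it was 76.8, 79.1, 77.4 and 99.8 RPKM in libraries E to H. The days overlapped and library H was above all others. The means were 74.6 ± 5.63 and 83.3 ± 11.1 RPKM, with a log2 fold change of 0.15 (SE 0.11, adjusted p = 0.632), and without library H the log2 fold change was 0.06.

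EPAS1 (ENSBTAG00000003711, chromosome 11, 28734999 to 28828070, 17 exons), the alpha subunit best known from endothelium and also found in trophoblast, had the lower values on day 41. It stood at 81.3, 85.4, 59.3 and 69.4 RPKM (day 35) against 62.6, 32.0, 36.7 and 37.2 RPKM (day 41). Libraries F, G and H were below every day 35 library, while library E fell within the day 35 range, so the days overlapped. The mean was 73.8 ± 11.8 RPKM (day 35) and 42.1 ± 13.8 RPKM (day 41), a ratio of 0.570 and a log2 fold change of -0.83 (SE 0.21, adjusted p = 0.223 by limma-trend). In the authors' deposited table the log2 fold change is -0.94 with an FDR of 0.000317. The value was -0.52 with quality weights (adjusted p = 0.213) and -1.03 without library E (adjusted p = 0.141).

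Other cell types could carry EPAS1 RNA, and in a culture fewer cells of a type and less RNA per cell cannot be told apart. Stromal markers also had mostly lower values on day 41, as given above. Library B had both the highest EPAS1 and the highest stromal and hypoblast sums, and without B the log2 fold change of EPAS1 was -0.76. In B and H, where EPAS1 was at 85.4 and 37.2 RPKM, the stromal markers differed among themselves. TAGLN was at 159 RPKM in B and 145 RPKM in H. VIM was at 86.4 and 9.96 RPKM there, COL1A1 at 76.4 and 1.19 RPKM, and ACTA2 at 17.8 and 2.73 RPKM. PDGFRB, below the filter, was at 0.105 and 0.339 RPKM. The endothelial sum was at most 3.76 RPKM, and it covers only the 3 of 10 listed markers that are in the table. The part of other cells in the EPAS1 difference was not tested.

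Because HIF1A and EPAS1 are alternative partners of ARNT, their ratio was taken within each library. EPAS1 over HIF1A was 1.12, 1.23, 0.805 and 0.839 on day 35, and 0.815, 0.404, 0.474 and 0.373 on day 41. EPAS1 RNA was thus above HIF1A RNA in libraries A and B and below it in the other 6. The mean ratio was 0.998 ± 0.208 on day 35 and 0.517 ± 0.203 on day 41, and since both genes were chosen with these values known no test is given.

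The third alpha subunit and the second ARNT gene were almost silent. HIF3A was at 0.183 ± 0.0992 and 0.126 ± 0.0346 RPKM and ARNT2 at 0.0528 ± 0.0530 and 0.0176 ± 0.0103 RPKM, both below the filter. ARNT, the partner of HIF1A and EPAS1, was at 13.4, 16.5, 15.97 and 16.4 RPKM (day 35) against 21.4, 24.7, 18.1 and 21.5 RPKM (day 41). Every day 41 library was above every day 35 library, as for 4.26% of all genes tested. The log2 fold change was 0.43 (SE 0.11, adjusted p = 0.231), and with quality weights it was 0.41 (adjusted p = 0.0345). In the authors' deposited table the FDR of ARNT is 0.116.

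**Figure D3:**
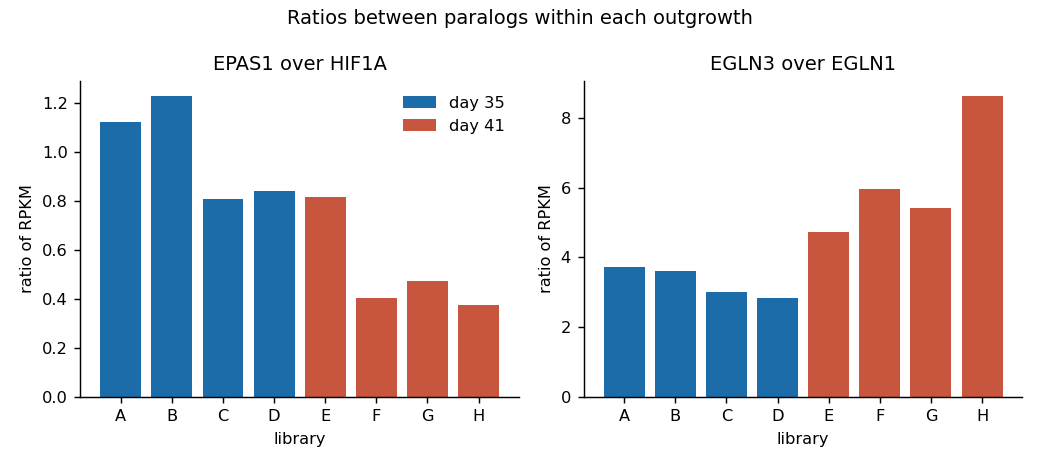
Ratio of RPKM between paralogs in each library (bars, day 35 in blue and day 41 in red), EPAS1 over HIF1A on the left and EGLN3 over EGLN1 on the right. EPAS1 over HIF1A ranges from 0.373 in library H to 1.23 in library B, and EGLN3 over EGLN1 ranges from 2.83 in library D to 8.63 in library H.

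EGLN3 gave the largest difference between the days among the 10. EGLN3 (ENSBTAG00000008172, chromosome 21, 44387137 to 44416154, 5 exons) encodes a HIF prolyl hydroxylase that is itself strongly driven by HIF. Its level was 65.8, 60.0, 58.0 and 51.9 RPKM (day 35) against 94.8, 129, 103 and 162 RPKM (day 41). All day 41 libraries were above all day 35 libraries, as for 4.26% of all genes, with E the nearest and H the farthest. The mean was 58.9 ± 5.72 RPKM (day 35) and 122 ± 30.3 RPKM (day 41), a ratio of 2.07.

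For EGLN3 the log2 fold change was 1.01 (SE 0.17, unadjusted p = 0.000217, adjusted p = 0.113 by limma-trend), the 23rd smallest p of 12582. With quality weights it was 0.95 (SE 0.16, unadjusted p = 0.000299, adjusted p = 0.0287). EGLN3 thus passed there without a smaller p of its own, in a fit where 3320 genes had an unadjusted p under 0.05 against 1474 by limma-trend. In the authors' deposited table the log2 fold change is 1.00 with an FDR of 5.58e-06. By limma-trend the log2 fold change of EGLN3 stayed between 0.87 (without H) and 1.12 (without E) whichever library was left out, with adjusted p from 0.0614 to 0.386. Library A, which stands apart, had the highest EGLN3 of day 35, and without it the log2 fold change was 1.07 (adjusted p = 0.0614).

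The paralogs of EGLN3 had smaller differences between the days. EGLN1 (ENSBTAG00000053296, chromosome 28, 4087440 to 4150379, 5 exons), the main HIF hydroxylase when oxygen is plentiful, was at 17.7, 16.6, 19.3 and 18.4 RPKM (day 35) against 20.1, 21.6, 19.1 and 18.8 RPKM (day 41). The days overlapped, and EGLN1 had the smallest spread within a day of the 10 genes, at the 6.53rd percentile of all genes tested. The log2 fold change of EGLN1 was 0.14 (SE 0.08, adjusted p = 0.563). EGLN2, the hydroxylase not known as a HIF target, was at 41.3 ± 3.66 and 38.5 ± 1.38 RPKM, with a log2 fold change of -0.10 (SE 0.08, adjusted p = 0.702).

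Within a library, EGLN3 over EGLN1 was 3.72, 3.62, 3.01 and 2.83 on day 35 and 4.72, 5.97, 5.42 and 8.63 on day 41. EGLN3 was the highest of the 3 hydroxylases in every library and EGLN1 the lowest. EGLN3 over EGLN2 was 1.43 ± 0.0587 on day 35 and 3.19 ± 0.857 on day 41. These ratios share the EGLN3 values described above and are no separate evidence.

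ANKRD37 (ENSBTAG00000018453, chromosome 27, 15651437 to 15654048, 5 exons), an ankyrin-repeat protein gene known as a HIF target in human cells, had lower values on day 41. It had 6.03, 4.35, 6.44 and 6.03 RPKM (day 35) against 4.49, 3.03, 2.75 and 2.18 RPKM (day 41). Library E was just above library B, and otherwise day 41 was below day 35. The means were 5.71 ± 0.925 and 3.11 ± 0.985 RPKM, with a log2 fold change of -0.72 (SE 0.18, adjusted p = 0.223). In the authors' deposited table the FDR of ANKRD37 is 0.309, and with quality weights the adjusted p was 0.134. It is the gene of the 10 with the fewest reads, and adding 1 to low RPKM shrinks its fold change, which was -0.89 with 0.1 added instead.

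VEGFA (ENSBTAG00000005339, chromosome 23, 17281915 to 17297193, 8 exons), the growth factor that draws blood vessels to tissue short of oxygen, had means of 58.3 ± 9.98 and 61.7 ± 4.204 RPKM on the 2 days. Its values were 65.1, 51.6, 68.5 and 48.1 RPKM (day 35) against 60.8, 57.5, 60.9 and 67.6 RPKM (day 41). Day 41 lay within the range of day 35. The log2 fold change of VEGFA was 0.09 (SE 0.13, adjusted p = 0.825), and it ran from 0.0068 (without D) to 0.17 (without C) when 1 library was left out.

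Of the rest of the VEGF family, VEGFB was at 28.3 ± 5.01 and 23.3 ± 3.69 RPKM, VEGFC at 4.55 ± 1.41 and 5.72 ± 2.58 RPKM, and the placental growth factor PGF at 2.97 ± 2.07 and 6.09 ± 5.07 RPKM, with 0 reads in library G. These 3 were tested and 0 passed. The receptor gene FLT1 and the co-receptor genes NRP1 and NRP2 were all below the filter, with FLT1 at 0.125 ± 0.128 and 0.0401 ± 0.0182 RPKM. NRP1 was at 0.726 ± 0.458 and 0.139 ± 0.105 RPKM, and the authors' deposited table gives it a log2 fold change of -2.36 with an FDR of 0.0329. VEGFA thus stood above each of the family members named here in the mean of either day.

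NDRG1 (ENSBTAG00000000711, chromosome 14, 8073208 to 8129604, 17 exons), a stress-response gene induced by low oxygen in human trophoblast, was the most abundant of the 10 by mean. It had 78.4, 108, 175 and 137 RPKM (day 35) against 178, 140, 169 and 122 RPKM (day 41). The days overlapped widely, from a low in library A to highs in C and E. The means were 125 ± 41.3 and 152 ± 25.8 RPKM, with a log2 fold change of 0.33 (SE 0.24, adjusted p = 0.633). It was 0.13 without library A, 0.52 without C (adjusted p = 0.540) and 0.17 with quality weights. Its paralogs NDRG2, at 49.1 ± 2.21 and 46.5 ± 4.31 RPKM, NDRG3, at 11.8 ± 1.06 and 13.3 ± 1.27 RPKM, and NDRG4, at 0.616 ± 0.384 and 0.333 ± 0.221 RPKM, were lower, and 0 of these 3 passed the test.

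BNIP3 and BNIP3L encode related proteins of the outer mitochondrial membrane that recruit the autophagy machinery to mitochondria. BNIP3 (ENSBTAG00000017804, chromosome 26, 51221616 to 51226873, 6 exons) had 34.1, 44.1, 73.6 and 61.5 RPKM (day 35) against 58.0, 53.0, 64.6 and 41.5 RPKM (day 41). Day 41 lay within the range of day 35. The log2 fold change of BNIP3 was 0.07 (SE 0.24, adjusted p = 0.943), and it ran from -0.12 (without A) to 0.24 (without C) when 1 library was left out.

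BNIP3L (ENSBTAG00000021307, chromosome 8, 73631225 to 73654614, 6 exons) had 74.0, 49.7, 56.4 and 52.5 RPKM (day 35) against 65.2, 63.1, 68.5 and 64.1 RPKM (day 41). Only library A of day 35 was above day 41, and B, C and D were all below it. Its log2 fold change was 0.18 (SE 0.12, adjusted p = 0.618), without A it was 0.30 (adjusted p = 0.0912), without B it was 0.11, and with quality weights it was 0.27 (adjusted p = 0.0612). Library A held the highest BNIP3L and the lowest BNIP3 of all 8, with BNIP3L over BNIP3 at 2.17 there against 0.766 to 1.55 elsewhere.

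Among 23 other mitophagy genes 22 were tested, 10 had higher and 12 lower values on day 41, the median log2 fold change was -0.03 and 0 passed in either direction. The most abundant were GABARAP (349 ± 125 and 279 ± 9.77 RPKM) and SQSTM1 (151 ± 46.0 and 112 ± 4.73 RPKM), which link cargo to autophagosomes, OPTN (75.8 ± 9.29 and 79.2 ± 16.01 RPKM), another cargo receptor, and PHB2 (75.4 ± 9.68 and 69.2 ± 7.50 RPKM), an inner membrane protein.

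KDM3A (ENSBTAG00000013580, chromosome 11, 48378513 to 48434868, 26 exons) encodes an oxygen-using demethylase of histone H3 lysine 9. It had 13.97, 13.4, 16.7 and 18.5 RPKM (day 35) against 18.3, 18.4, 17.4 and 17.5 RPKM (day 41). Day 41 lay in a narrow band inside the upper part of the day 35 range. Its log2 fold change was 0.19 (SE 0.11, adjusted p = 0.536), and without library B it was 0.13.

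Of 15 other demethylases of this family 13 had higher and 2 lower values on day 41, with a median log2 fold change of 0.18, and 0 passed. Without library A 10 were higher and 5 lower. KDM4A went the other way from most, at 14.4 ± 0.708 RPKM (day 35) and 10.9 ± 0.105 RPKM (day 41), with a log2 fold change of -0.37 (SE 0.08, adjusted p = 0.179, and 0.0158 with quality weights). KDM5B was at 22.1 ± 1.80 and 27.5 ± 1.84 RPKM (log2 fold change 0.31, SE 0.09, adjusted p = 0.263). The close paralogs of KDM3A, KDM3B and JMJD1C, were at 7.67 ± 2.23 and 9.95 ± 0.280 RPKM and at 7.63 ± 1.1004 and 9.58 ± 0.711 RPKM. In 4 of the 15 (KDM4A, KDM5B, KDM5C and PHF2) the days did not overlap, where 8.2% of all genes tested had no overlap.

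Further partners and regulators of HIF numbered 22, and 20 of them were tested. On day 41 14 had higher and 6 lower values, the median log2 fold change was 0.06 and 0 passed in either direction. In 2 of the 20 (ARNT and MCM7) the days did not overlap, where 8.2% of all genes tested had no overlap. With quality weights 2 of the 20 passed as higher (ARNT and SIAH2), where 2.96% of all genes did. SIAH2, a ubiquitin ligase gene whose product targets the EGLN proteins, was at 17.5 ± 3.63 and 20.1 ± 1.59 RPKM (log2 fold change 0.32 and adjusted p = 0.0496 in that fit). By limma-trend its log2 fold change was 0.20 (adjusted p = 0.601), and the authors' deposited table gives it an FDR of 0.732. Its days overlapped, and library A of day 35 was the highest of all 8 at 22.9 RPKM. VHL, which recognizes hydroxylated HIF, was at 7.77 ± 1.23 and 8.33 ± 0.918 RPKM, and HIF1AN, the asparagine hydroxylase that blocks HIF from its coactivators, at 33.3 ± 2.84 and 33.9 ± 4.22 RPKM. The VHL complex subunits ELOB, ELOC, CUL2 and RBX1 were at 206 ± 7.67, 13.6 ± 0.749, 9.69 ± 0.304 and 19.9 ± 1.34 RPKM on day 41, with log2 fold changes between -0.01 and 0.04. CITED2, which competes with HIF for its coactivators, was at 82.7 ± 18.5 and 70.2 ± 13.8 RPKM. The coactivator EP300 was at 13.7 ± 5.96 and 14.4 ± 2.24 RPKM and the coactivator CREBBP at 6.57 ± 1.76 and 6.87 ± 0.894 RPKM. Their log2 fold changes were 0.18 (SE 0.32) and 0.08 (SE 0.17) by limma-trend, and -0.08 and -0.0020 with quality weights. Both were lowest in library A, at 5.69 and 4.51 RPKM. The authors' deposited table gives log2 fold changes of -0.03 and 0.09.

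The remaining regulators had small fold changes by limma-trend, and for some of them the value depended on library A. HSP90AB1, a chaperone of HIF alpha, was at 718 ± 87.8 and 716 ± 32.5 RPKM, and RACK1, which competes with it, at 800 ± 353 and 803 ± 62.0 RPKM. On day 41 SIAH1 was at 9.71 ± 0.470, USP33 at 14.3 ± 0.821, SENP1 at 3.08 ± 0.303, COMMD1 at 21.5 ± 3.31, MCM7 at 73.2 ± 3.12 and LIMD1 at 8.03 ± 1.26 RPKM. The log2 fold changes of these 6 lay between -0.03 (SIAH1) and 0.17 (SENP1) by limma-trend. Library A had the highest RACK1 (1327 RPKM) and COMMD1 (41.1 RPKM) and the lowest LIMD1 (2.61 RPKM) of all 8. By limma-trend the log2 fold changes of RACK1, COMMD1 and LIMD1 were 0.09, -0.01 and 0.16. With quality weights they were 0.34, 0.37 and -0.08 (adjusted p = 0.102, 0.231 and 0.806).

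A list of 64 other genes known to respond to HIF had 60 in the table and 54 tested, of which 37 had higher and 17 lower values on day 41, with a median log2 fold change of 0.11, and 0 passed in either direction. Without library A 33 were higher and 21 lower, with a median of 0.07. The proliferation markers, 6 of 6 in the table, were lowest in library A, with a sum of 141 RPKM there against 229 to 272 RPKM in the other 7, and their part in these counts was not tested. With quality weights 2 of the 54 were higher (CA9 and HK1) and 2 lower (DDIT4 among them), where 2.96% of all genes were called higher and 2.23% lower, and in the authors' deposited table CA9 and HK1 are higher and 3 genes lower (PFKFB3 and DDIT4 among them) at an FDR under 0.05, as 0.675% and 1.08% of its genes are. FLT1 and HIF3A, and KDM4B and KDM4C among the demethylases, are in this list as well.

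CA9, a carbonic anhydrase on the cell surface and a classical HIF1A target, had 24.8, 16.8, 24.4 and 12.9 RPKM (day 35) against 31.9, 43.7, 43.9 and 41.3 RPKM (day 41). As with EGLN3 the days did not overlap and library E was the nearest to day 35. The log2 fold change of CA9 was 1.03 (SE 0.21, adjusted p = 0.181, and 0.0460 with quality weights). HK1, a hexokinase, was at 23.5 ± 1.70 and 33.8 ± 5.07 RPKM (log2 fold change 0.49, SE 0.12, adjusted p = 0.223, and 0.0400 with quality weights).

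Other targets were lower on day 41. DDIT4, an inhibitor of mTOR signalling, had 28.6, 30.6, 34.1 and 36.7 RPKM (day 35) against 23.4, 20.6, 12.3 and 19.9 RPKM (day 41), with no overlap (log2 fold change -0.77, SE 0.18, adjusted p = 0.214, and 0.0467 with quality weights). PFKFB3, which sets the pace of glycolysis, was at 11.3 ± 2.17 and 7.68 ± 0.389 RPKM. STC2, a secreted glycoprotein gene, was at 3.23 ± 1.17 and 1.12 ± 0.632 RPKM, and HMOX1, heme oxygenase, at 17.9 ± 6.80 and 9.08 ± 5.77 RPKM, with adjusted p of 0.248 and 0.417. Higher values without a call were seen for the collagen-modifying PLOD2 and PLOD1, at log2 fold changes of 0.59 (SE 0.35) and 0.58 (SE 0.22).

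The most abundant targets were glycolytic and showed small differences. ENO1 was at 1001 ± 90.8 and 1049 ± 110 RPKM, PKM at 454 ± 52.3 and 490 ± 46.6, ALDOA at 450 ± 31.5 and 474 ± 49.8, PGK1 at 269 ± 40.3 and 294 ± 20.3, PGAM1 at 258 ± 22.5 and 278 ± 10.7, and LDHA at 231 ± 45.8 and 282 ± 21.997 RPKM. Their log2 fold changes lay between 0.07 (ENO1) and 0.31 (LDHA), and LDHA had an adjusted p of 0.461.

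**Figure D4:**
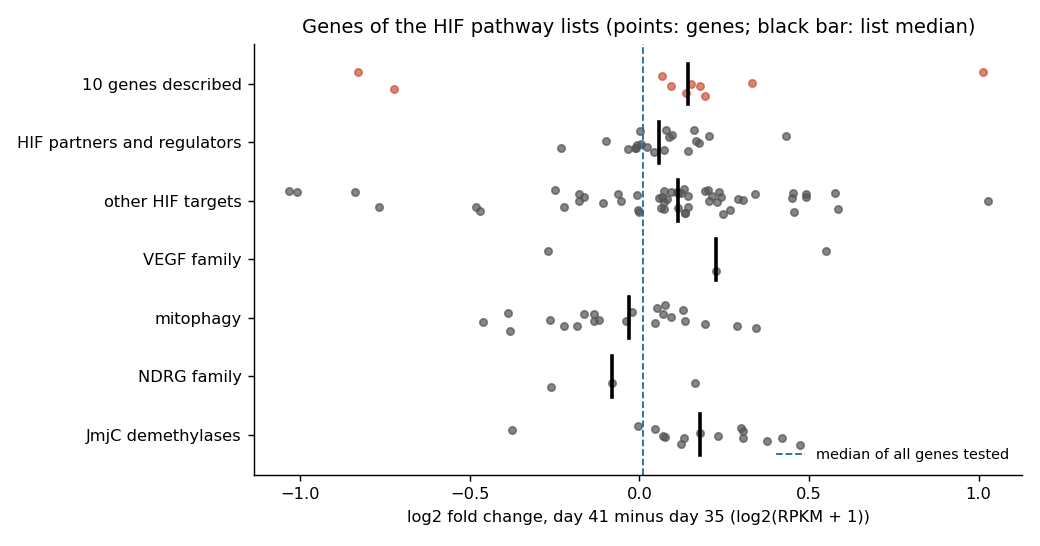
Log2 fold change (day 41 minus day 35, on log2(RPKM + 1)) of each tested gene in the HIF pathway lists, with the list median as a black bar and the median of all genes tested as a dashed line. EGLN3 and CA9 are the points near 1 on the right, and the other HIF targets have a median of 0.11 with genes on both sides of 0.

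Correlations among the 10 genes ran in both directions. EGLN3 falls into separate groups by day, so no r over all 8 libraries is given for it, and 4 libraries a day are too few to test it within a day. Over the 36 pairs of the other 9 genes, Pearson's r of log2(RPKM + 1) was positive in 18 and negative in 18, and 0 pairs passed after adjustment over all 45 pairs computed (exact permutation test, two-sided), with 5 of the 36 at an unadjusted p under 0.05. The closest pair was BNIP3 and NDRG1, with r = 0.91 (exact permutation p = 0.00149, adjusted p = 0.0586) and Spearman's rho = 0.79 (exact permutation p = 0.0279, adjusted p = 0.251). Both were lowest in A and high in C and G. Without the libraries farthest from the median of BNIP3, A and H, r was 0.83, after subtracting the mean of each day it was 0.97, and leaving out each library in turn gave 0.84 to 0.94. In the libraries without D, 2 of these pairs passed (BNIP3 with NDRG1 and EGLN1 with KDM3A), and without H 1 pair did (HIF1A with KDM3A).

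**Figure D5:**
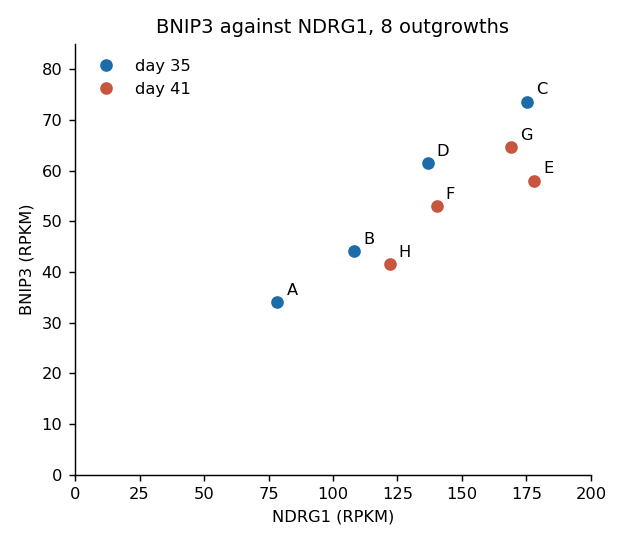
BNIP3 against NDRG1 in RPKM, each point 1 library, with day 35 in blue and day 41 in red. Library A is lowest in both genes and library C is highest in BNIP3 at 73.6 RPKM, and libraries of both days are mixed along the same trend.

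Genes with the most similar pattern over the 8 libraries were named by the highest Pearson's r, up to 3 for each of the genes other than EGLN3, as a description. The points share libraries and scaling, and the genes were picked as the highest of 12582, so r is given with no p. For EPAS1 these were XBP1 (r = 0.97), AP1M2 (0.96) and RAB35 (0.94), and for ANKRD37 they were ARSA (0.96), LAT (0.95) and PYGB (0.94). BNIP3L was matched most closely by FUNDC2 (0.99), WBP4 (0.98) and ATP23 (0.98), and BNIP3 by CDS1 (0.98), POLH (0.98) and RAD51AP1 (0.96). FUNDC2 had 69.5, 41.0, 50.2 and 43.8 RPKM (day 35) against 60.8, 58.1, 66.1 and 56.5 RPKM (day 41), with the same high in library A. NDRG1 was closest to RPA1 (0.98), FAM3C (0.98) and SASS6 (0.97), KDM3A to MPP6 (0.99), NLGN2 (0.97) and AGTPBP1 (0.96), HIF1A to AHI1 (0.96), TRAPPC11 (0.95) and SCAPER (0.95), EGLN1 to CADM4 (0.95), PTPRK (0.95) and PANK3 (0.94), and VEGFA to CCDC58 (0.90) and the mitochondrial COX3 (0.89).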

How the data were processed

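The authors deposited RPKM for each of 8 libraries with exon lengths and coordinates on ARS-UCD1.2. Tools named without versions, per the submitters' processing notes, are edgeR, featureCounts, HISAT2 and FastQC, and the strand setting is not given in the sources used here. For day 41 against day 35 the authors deposited a log2 fold change, a log2 mean abundance, a likelihood ratio score, a p-value and an FDR per gene. RPKM times exon length fell on whole multiples of 1 step per library, within 0.01 for 100% of values, which gave the reads used for limma-voom and the scale factors of 0.897 to 1.04. Genes with 0.5 RPKM in at least 4 libraries were tested by limma-trend (limma 3.58.1, R 4.3.3) on log2(RPKM + 1), with no covariate and two-sided tests. The recovered reads were modelled with limma-voom, and a negative binomial count test was not run on them. Correlations used exact permutation over all 40320 orderings (Python 3.11.15). No exon of the 10 genes overlapped an exon of another gene in the table, and all 10 matched RefSeq by identifier. The limma-trend fit and unweighted limma-voom were tested on simulated data, in which no library stood apart as A does. The fit with quality weights was not tested in this way. The 10 genes, the lists and the rule for naming genes were chosen with earlier results of these data known. The rule named all 10 genes, the HIF partners and regulators in the table, and among the other lists those past a threshold, largest in change or most abundant. Alternatives were other scale factors, pseudocounts of 0.1 and 0.5, other filters, limma-voom with and without quality weights, and each library left out. The labels say that each outgrowth is from an individual embryo. No genome sequence was used here. Some genes that the rule named are not reported here.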

Additional observations from a re-analysis of the deposited data

Results flagged for a closer look

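HIF1A in library H, at 99.8 RPKM, lay far from the other day 41 libraries, which were between 76.8 and 79.1 RPKM, with a gap of 0.900 of the range of the group. It was the only value set apart in this way in 20 groups of 4 libraries (10 genes on 2 days), and chance gives about 1 in 20. Library H also had the highest EGLN3 (162 RPKM) and the lowest ANKRD37 (2.18 RPKM) of all 8.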

How the results depend on the processing

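Of 160 values of log2 fold change (10 genes under 16 alternatives each), 155 kept their direction and their side of the threshold, 1 came to pass it (EGLN3 with quality weights, 0.95) and 4 changed sign, all of BNIP3, at -0.13 with quality weights and -0.12, -0.0017 and -0.021 without libraries A, B and G (up to 0.24 without C). The cause was not tested. By limma-trend or unweighted limma-voom the 10 genes had 0 calls under every alternative tried, and limma-voom with quality weights made 1. Over all genes, where limma-trend called 6, the count was 3 with a pseudocount of 0.1, 3 with no filter, 2 with limma-voom and 652 with quality weights (372 higher and 280 lower), and leaving out each library gave 0 to 43, 43 being without A, and 0 being reached when any of B to F was left out (unadjusted p under 0.05 in 1040 genes without B, 1125 without C, 1705 without D, 1051 without E and 1150 without F). Other scale factors moved the median log2 fold change of all genes from 0.01 to at most 0.03. Leaving out each library, the number of the 45 pairs of genes past the threshold ran from 0 to 3, 1 of these 3 (without D) holding EGLN3. The directions in lists without library A were chosen for comparison after seeing the data. No paired analysis was possible because the columns carry no replicate number and the titles of the 2 days share only 1. With 4 outgrowths a day, the spread between outgrowths, library A included, was large beside counting error for the 10 genes. What limited the number of calls over all genes was not tested.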
